A study of Mus musculus with 6 samples.

Results

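10 genes that set the tone of the pulmonary artery were followed through single cell RNA sequencing of proximal pulmonary arteries (PAs) from young and old mice: the potassium channel genes Kcnk3, Kcna5, Kcnma1 and Kcnmb1, the calcium entry genes Cacna1c and Trpc6, and the calcium store genes Ryr2, Ryr3, Itpr1 and Atp2a2. These 10 genes were chosen by symbol, for their known part in arterial tone, out of 53647 genes listed for each library, and all 10 were found. The mice were C57BL/6J wild-type animals, per the study's methods, and the labels name no treatment. The libraries came from 2 young mice of 3 months, labelled 3m and f3m and called the first and second young library here, and from 4 old mice of 20, 24, 27 and 28 months. Each library was 1 mouse, so the 4 old libraries were not of 1 age, and the label of the 28-month mouse and of the second young mouse marks them as female. The artery was excised with surrounding tissue, and airway, mesothelial and immune cells were therefore sequenced beside smooth muscle cells (SMCs), endothelial cells (ECs), adventitial fibroblasts (FBs) and perivascular macrophages (MΦs).

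In an arterial SMC, potassium efflux holds the membrane at a negative potential and keeps voltage-gated calcium channels closed. When these channels open, calcium enters, ryanodine and inositol trisphosphate receptors release more of it from the sarcoplasmic reticulum, and the contractile filaments are activated. The calcium pump of the reticulum refills the store. Local calcium release through ryanodine receptors also opens large-conductance potassium channels, which oppose contraction. In the pulmonary circulation TASK-1 (Kcnk3) and Kv1.5 (Kcna5) are the potassium channels best known for a role in pulmonary hypertension, and TRPC6 for calcium entry under hypoxia.

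Values are counts of unique molecular identifiers (UMIs, 1 per captured mRNA molecule), summed over the cells of a type in a library and scaled to the total of those cells as CPM (UMIs of the gene per 1000000 UMIs). A UMI is counted near the end of the transcript, so CPM was not divided by gene length. The libraries were uneven in depth, with 6355125 to 50436562 UMIs in all, 929 to 4027 cells kept, and medians of 799 to 8117 UMIs per cell. SMCs numbered 23 and 29 in the young libraries, and 140, 3, 2398 and 951 at 20, 24, 27 and 28 months. The 24-month library was left out of every SMC value for its 3 cells. Young SMCs held 42420 UMIs in all and the other old SMCs 29111391, so a young level of 3 UMIs, the limit that a count of 0 allows, stood at 137 and 147 CPM in the 2 young libraries. All 8 SMC markers, among them Acta2, Myh11 and Tagln, were detected in each of the 5 libraries, with a summed level of 29096 to 56123 CPM. The first young, second young and 24-month libraries shared 130 to 213 cell barcodes in pairs, against at most 4 in every other pair.

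Of the 10 genes, 7 were clearly expressed in SMCs at 27 and 28 months, above barcodes with under 100 UMIs of the same library. In the other SMC libraries Kcnmb1 and Atp2a2 were also above these barcodes, but the rest not always. Kcnma1 had 228 against 246 CPM in the first young library and 116 against 139 at 20 months. Cacna1c had 97.7 against 129 CPM in the second young library and 110 against 133 at 20 months. Itpr1 had 138 against 198 CPM at 20 months, and Ryr2 45.6 against 204 in the first young library. In SMCs 4 of the 7, Kcnma1, Kcnmb1, Cacna1c and Atp2a2, were above every other type in every library that held both. Kcnk3 was close to restricted to SMCs but was not detected in the first young library. Itpr1 was higher in ECs than in SMCs in 5 of 5 libraries. Kcna5, Trpc6 and Ryr3 were at most 19.8 CPM in the SMCs of any library. The cell types were defined by clustering the same cells, with the 10 genes left out, so differences between types are given as descriptions with no test. In summed cells, fewer expressing cells and less RNA per cell cannot be told apart.

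**Figure D1:**
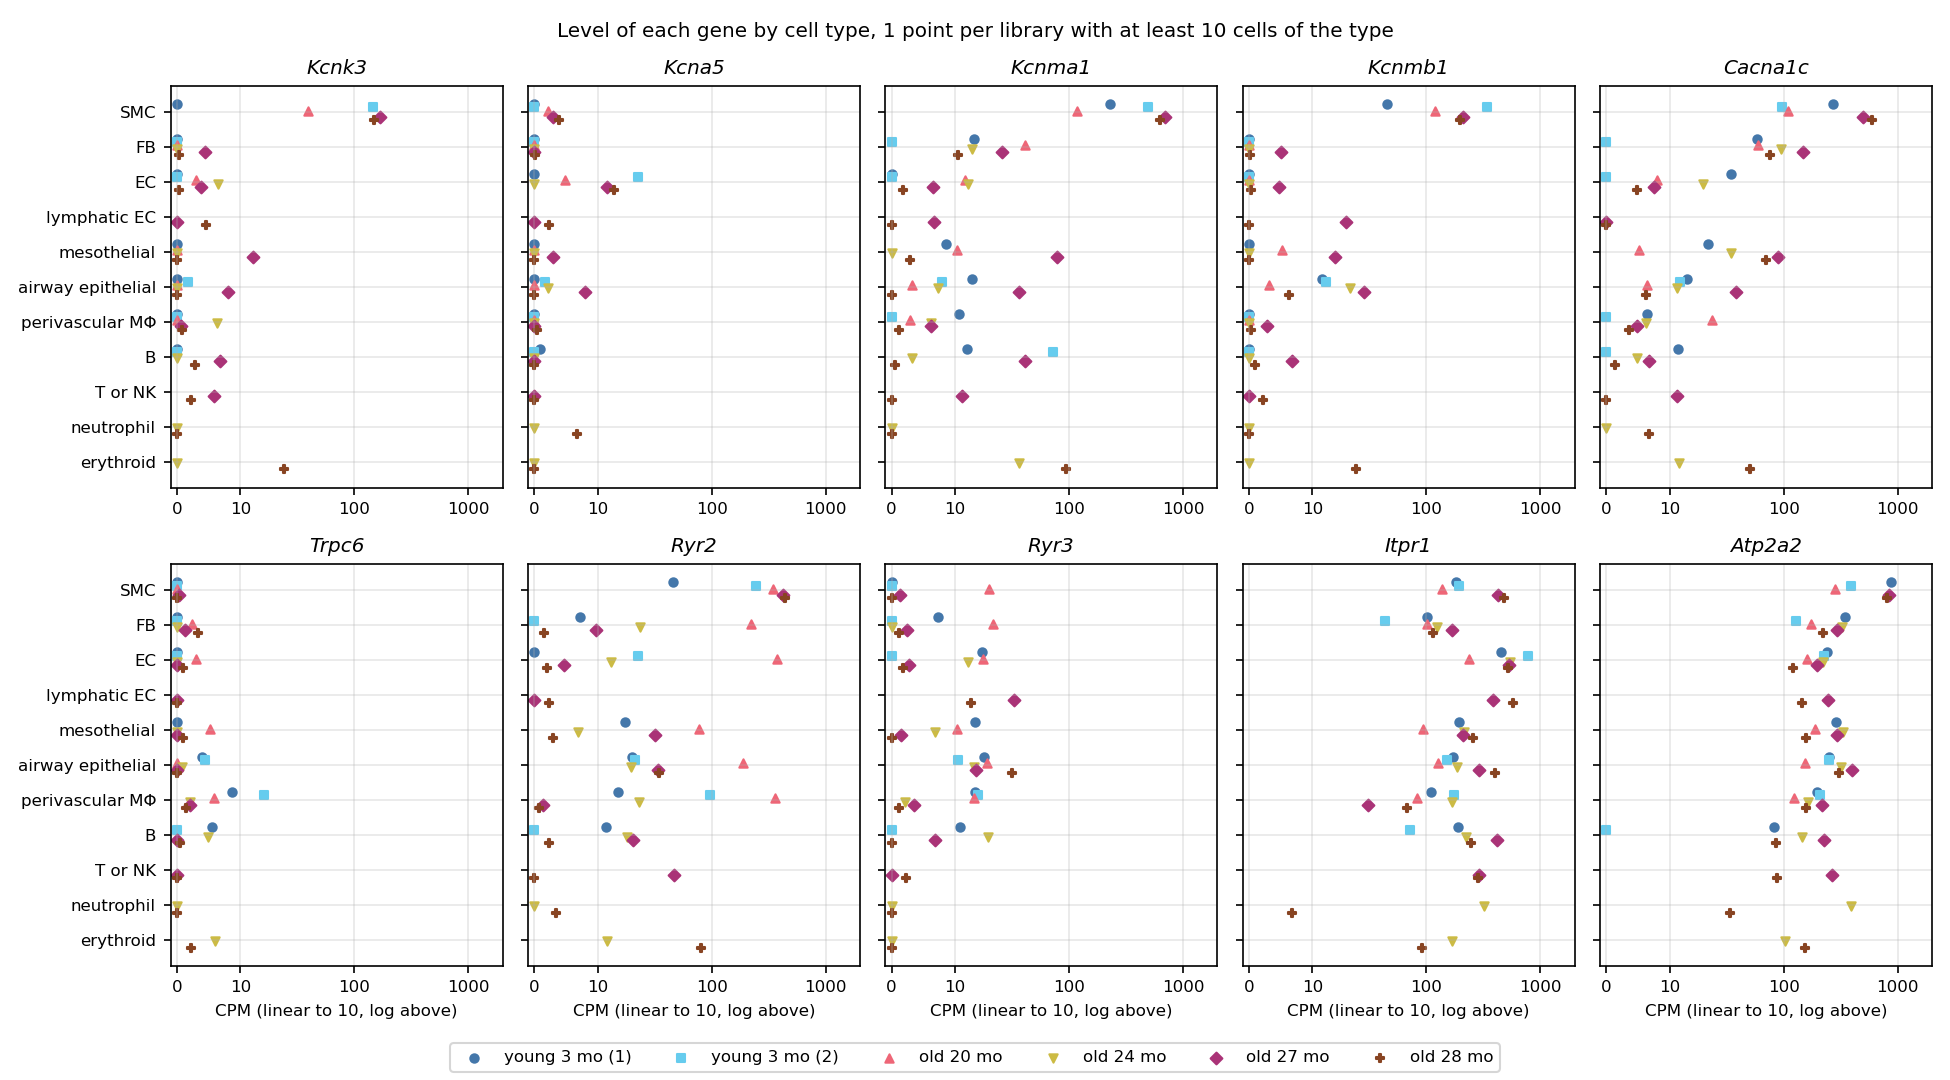
Level of each gene in CPM (linear to 10, logarithmic above) by cell type, with 1 point per library that held at least 10 cells of the type. SMC points of Kcnma1, Kcnmb1, Cacna1c and Atp2a2 lie to the right of all other types in the same library, Itpr1 is highest in ECs (509 ± 173 CPM), and Kcna5, Trpc6 and Ryr3 stay low in SMCs.

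Kcnk3 (chr5:30588170-30625270, GRCm38.p6) encodes TASK-1, a tandem-pore potassium channel. In SMCs it was at 0 and 147 CPM in the first and second young library, and at 39.6, 169 and 150 CPM at 20, 27 and 28 months, a mean of 101 ± 76.0 CPM (SD, n = 5). The young values rested on 0 and 3 UMIs, so the groups overlapped and the first young library was below its detection limit of 137 CPM. Over the named types with at least 2 libraries, the next level was 12.03 ± 17.02 CPM in erythroid cells (n = 2), and ECs, FBs and MΦs did not exceed 6.49 CPM in any library. SMCs were thus above the other resident types in 4 of 5 libraries, with both at 0 in the first young library. The 3 genes whose level over 11 types was most like that of Kcnk3 were Scube3, Gm14285 and Pln (Pearson r of log2 mean CPM, 0.99 for each), where Pln encodes phospholamban, the inhibitor of the calcium pump. Within SMCs Pln was at 592 and 0 CPM in the first and second young library and at 26.4, 15.8 and 8.57 CPM at 20, 27 and 28 months, so its SMC mean rests on the first young library, where Kcnk3 was at 0 and cardiomyocyte markers were found.

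Kcnma1 (chr14:23292288-24005110) encodes the pore of the large-conductance calcium-activated potassium (BK) channel, and Kcnmb1 (chr11:33962955-33973641) the β1 subunit that raises its calcium sensitivity in smooth muscle. Kcnma1 in SMCs was at 228 and 488 CPM in the young libraries and at 116, 694 and 633 CPM at 20, 27 and 28 months. Kcnmb1 was at 45.6 and 342 CPM in the young libraries and at 119, 211 and 197 CPM in the old in the same order. For Kcnma1 the 20-month library was below and the 27- and 28-month libraries above both young ones, and for Kcnmb1, which rested on 1 UMI in the first young library, all 3 old libraries lay between the young ones. Means were 432 ± 252 CPM for Kcnma1 and 183 ± 111 CPM for Kcnmb1 (SD, n = 5). Outside SMCs, Kcnma1 was next in erythroid cells, at 65.2 ± 40.9 CPM (n = 2), and Kcnmb1 in airway epithelial cells, at 14.1 ± 9.41 CPM (n = 6). The genes most like Kcnma1 over types were 2310015D24Rik, Itga8 and Lmod1 (r of 0.98 to 0.99), and those most like Kcnmb1 were Slc24a4, Hspb6 and Slc38a11 (r of 0.96 to 0.98). Itga8 is an integrin chain and Lmod1 a smooth muscle actin regulator that also stands in the SMC marker list used to name the cells.

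Kcna5 (chr6:126532551-126535555) encodes Kv1.5, a voltage-gated potassium channel. In SMCs it gave 0 UMIs in both young libraries, and 2.20, 2.94 and 3.88 CPM at 20, 27 and 28 months, or 91 UMIs among 29111391. In ECs it was at 8.94 ± 8.97 CPM (SD, n = 6), and above SMCs in 4 of 5 libraries, with 62 UMIs in all. Most of these UMIs came from 1 group of ECs led by Gpihbp1, Tcf15 and Car4, genes of capillary endothelium: it had 136 CPM at 27 months (13 UMIs, 28 cells) and 86.6 CPM at 28 months (39 UMIs, 176 cells). The other EC clusters reached at most 13.96 CPM in any library. The 2 libraries with at least 10 cells of this group were also the deepest.

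Cacna1c (chr6:118587240-119197384) encodes the pore of the L-type calcium channel, the main route of voltage-gated calcium entry in arterial SMCs. It was at 273 and 97.7 CPM in young SMCs and at 110, 499 and 594 CPM at 20, 27 and 28 months, a mean of 315 ± 225 CPM (SD, n = 5). The 27- and 28-month values were above both young values and the 20-month value was between them. FBs were next, at 72.7 ± 48.2 CPM (n = 6), and mesothelial cells at 44.1 ± 34.8 CPM (n = 5). The most like genes over types were B3galt1, Cacng7 and Pdzrn3 (r of 0.97 to 0.98).

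Trpc6 (chr9:8543867-8680752) encodes a receptor-operated cation channel. Over all 5 SMC libraries it gave 9 UMIs, all of them in the 27-month library, where they made 0.4005 CPM of 22472311 UMIs. The SMC level of old mice was therefore under 1 CPM at 27 and 28 months, while the young libraries, with limits of 137 and 147 CPM, could not have shown such a level. MΦs had 6.03 ± 5.64 CPM (SD, n = 6) from 15 UMIs. The highest single value was in FB cluster 8 of the 28-month library, at 79.9 CPM (18 UMIs, 119 cells), while the FBs of the same cluster gave 0 to 2.45 CPM in the other libraries.

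Ryr2 (chr13:11553099-12106945) and Ryr3 (chr2:112631354-113217405) encode ryanodine receptors, the calcium release channels of the reticulum. Ryr2 in SMCs was at 45.6 and 244 CPM in the young libraries and at 345, 421 and 437 CPM at 20, 27 and 28 months. Among the members with enough counts to be tested, it was the only one whose old SMC libraries were all above both young ones. The young values rested on 1 and 5 UMIs. Kcna5, too low to be tested, also gave UMIs in each old SMC library used and none in the young ones, below the young detection limit. Ryr3 in SMCs gave no UMI in the young and 28-month libraries, 19.8 CPM (9 UMIs) at 20 months and 1.29 CPM at 27 months. Ryr3 was higher elsewhere, at 23.5 ± 13.7 CPM in lymphatic ECs (n = 2) and 18.2 ± 7.17 CPM in airway epithelial cells (SD, n = 6).

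The 20-month library stood apart for Ryr2. There Ryr2 was at 375 CPM in ECs, 221 in FBs, 358 in MΦs and 188 in airway epithelial cells, beside 345 in SMCs. In the other 5 libraries ECs, FBs and airway epithelial cells did not exceed 34.7 CPM, and MΦs did not exceed 96.3 CPM. The SMC level at 20 months was thus below that of ECs and MΦs, whereas in the other 4 SMC libraries it was above them. Barcodes with under 100 UMIs, far below the limit for a cell, had 33618 CPM of Ryr2 at 20 months (102888 UMIs) and 45.1 to 204 CPM elsewhere. Of 113779 Ryr2 UMIs in that library, 99.0% were in barcodes under 500 UMIs, and in 598 of its 74074 barcodes of 20 to 499 UMIs at least 1 UMI in every 2 was Ryr2, against 0 such barcodes in each other library. The part of this signal in the 20-month SMC value was not tested. Without it, SMCs had 45.6, 244, 421 and 437 CPM.

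**Figure D2:**
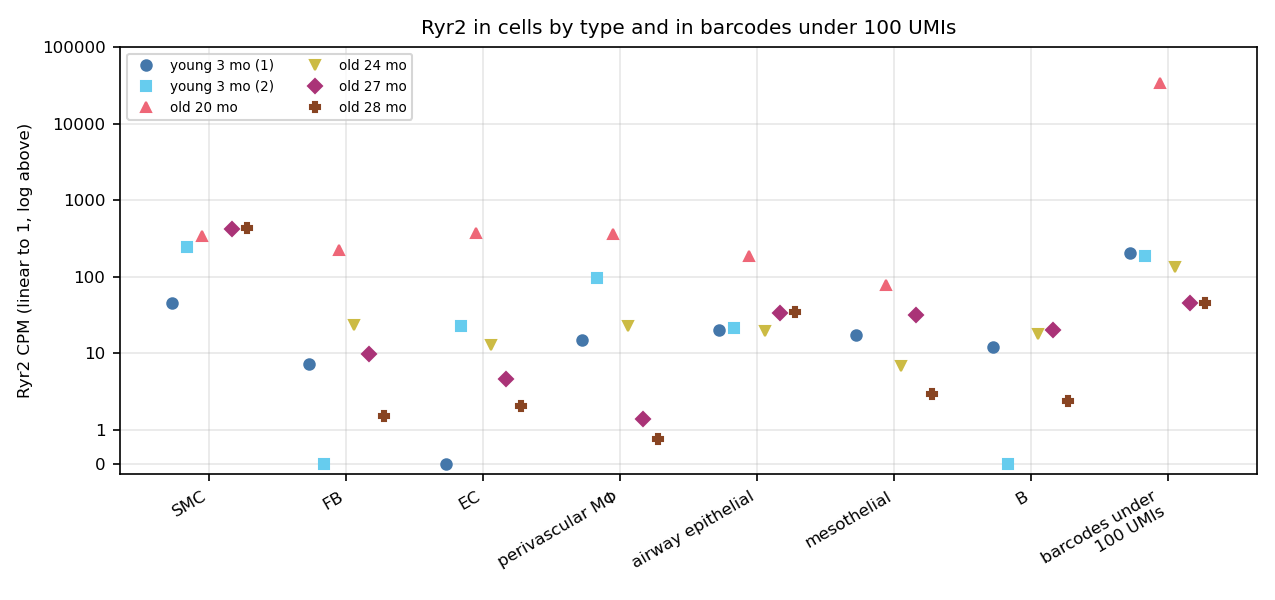
Ryr2 CPM (linear to 1, logarithmic above) by cell type and in barcodes with under 100 UMIs, with 1 point per library. The 20-month library is at 375 CPM in ECs, 358 in MΦs and 33618 in barcodes under 100 UMIs, above all other libraries in each of these columns.

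Itpr1 (chr6:108213083-108551116) encodes the type 1 inositol trisphosphate receptor, which releases calcium after receptor signals. In ECs it was at 450 and 775 CPM in the young libraries and at 239, 539, 529 and 522 CPM at 20, 24, 27 and 28 months. SMCs had 182 and 195 CPM in the young libraries and 138, 430 and 480 CPM at 20, 27 and 28 months. ECs were above SMCs in 5 of 5 libraries and above FBs in 6 of 6, at 509 ± 173 CPM against 285 ± 157 CPM in SMCs. Lymphatic ECs followed ECs at 479 ± 133 CPM (n = 2), a difference within the spread over libraries, and B cells had 229 ± 124 CPM (n = 5). Among SMC libraries the 27- and 28-month values were above both young values and the 20-month value below them.

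Atp2a2 (chr5:122453513-122502225) encodes SERCA2, the calcium pump that refills the store. It was found in every type, and in SMCs it was at 866 and 391 CPM in the young libraries and at 283, 841 and 803 CPM at 20, 27 and 28 months. The mean of 637 ± 277 CPM (SD, n = 5) stood above airway epithelial cells (278 ± 81.8 CPM, n = 6), mesothelial cells (251 ± 74.8 CPM, n = 5) and FBs (248 ± 86.4 CPM, n = 6), which did not differ beyond their spread. SMCs were above each of these in every library with both. Young and old SMCs overlapped, with the first young library highest and the 20-month library lowest. The 866 CPM of the first young library includes 2 SMC barcodes with cardiomyocyte RNA.

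The shares of SMCs with a UMI followed depth as well as level. At 27 months Kcnma1 was seen in 92.6% of SMCs (exact 95% binomial interval 91.5 to 93.6%) and at 28 months in 91.0% (89.0 to 92.7%), against 17.4% (4.95 to 38.8%) and 24.1% (10.3 to 43.5%) in the young libraries. With every cell thinned to 500 UMIs the shares were 27.5% and 26.2% against 8.70% and 17.2%. The 20-month library was at 30.7% before thinning and at 5.71% after, below both young libraries. B cells, which should lack the smooth muscle channels, showed Kcnma1 in 6.25% of 32 cells at 27 months (0.766 to 20.8%, median 3983 UMIs against 9394 in SMCs) and in 0.385% of 260 cells at 28 months (0.00974 to 2.12%, median 7364.5 UMIs against 6640 in SMCs). Cacna1c was seen in 3.12% and 1.15% of these B cells and Kcnmb1 in 3.12% and 0.769%, before thinning. B cells did express Itpr1, in 62.5% and 71.9% of cells.

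**Figure D3:**
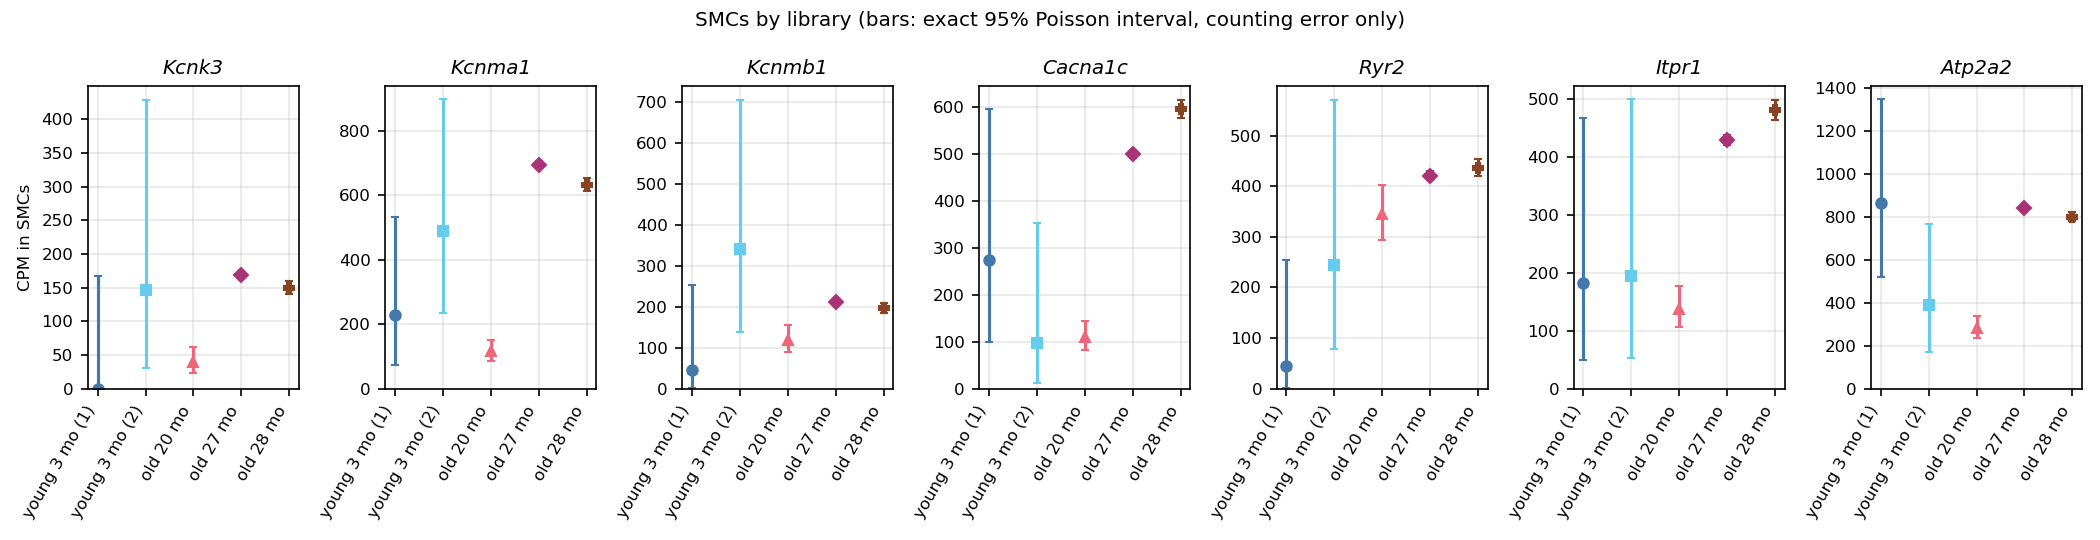
CPM of the members in SMCs, with 1 point per library in the order first young, second young, 20, 27 and 28 months, and bars for the exact 95% Poisson interval, which covers counting error only. The young intervals are wide, resting on 0 to 19 UMIs, and the 20-month points of Kcnma1, Cacna1c, Itpr1 and Atp2a2 are below those of 27 and 28 months.

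The comparison of old with young SMCs asks whether channel and calcium store genes change with age in the wall of the old artery. No member passed the test. On simulated counts the SMC fit recovered 1% of 4-fold and 63.5% of 16-fold changes, so a gene without a call may still have changed. In edgeR's quasi-likelihood fit over 6541 genes in 2 young and 3 old libraries, 0% of genes were called higher and 0% lower at an adjusted p under 0.05, while 6.99% were higher and 0.81% lower at an unadjusted p under 0.05 and DESeq2 called 3 genes. In all, 7 members were tested, and Kcna5, Trpc6 and Ryr3 failed the filter on low counts. All 7 fitted log2 fold changes were above 0, except that Kcnmb1 turned to -0.13 with library totals in place of TMM scaling. Over all genes 71.4% were above 0 with a median of 0.56, and without TMM 54.4% with a median of 0.12.

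Ryr2 had a log2 fold change of 1.91 (SE 0.75, edgeR adjusted p = 0.604, unadjusted p = 0.0217), and every old library above every young one, as for 23.1% of all genes. Cacna1c had 1.48 (SE 0.81) and Itpr1 1.28 (SE 0.72), each with an adjusted p of 0.607. Kcnk3 had 1.15 (SE 1.04, adjusted p = 0.749), Kcnma1 0.80 (SE 0.76, 0.759), Atp2a2 0.43 (SE 0.64, 0.877) and Kcnmb1 0.29 (SE 0.74, 0.948). These values rest on which young library is used. Without the first young library Ryr2 was at 1.10, Cacna1c at 2.37, Itpr1 at 1.19 and Kcnk3 at 0.07, and without the second Ryr2 was at 3.58, Cacna1c at 0.95 and Itpr1 at 1.35, while Kcnk3 then stood against a young value of 0 and is given no fold. None of these passed the test. Without TMM scaling Ryr2 was at 1.47, Cacna1c at 1.09 and Itpr1 at 0.88. From pooled counts, the old to young ratio of CPM was 2.99 for Ryr2 (95% counting interval 1.37 to 8.15) and 2.31 for Kcnk3 (0.789 to 11.2), intervals that leave out the spread between mice.

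The 20-month library decided these calls. Without it, with 2 young against 2 old libraries, edgeR called 1.83% of 3659 genes higher and 0.519% lower, and 3 of the 7 members were among those higher. They were Cacna1c (log2 fold change 1.94, SE 0.43, adjusted p = 0.0269), Itpr1 (1.67, SE 0.41, adjusted p = 0.0386) and Ryr2 (1.98, SE 0.51, adjusted p = 0.047). On the young side these calls rest on few counts, with 8 UMIs of Cacna1c, 8 of Itpr1 and 6 of Ryr2 over both young libraries. Kcnma1 was at 1.29 (SE 0.38, adjusted p = 0.0815). In the 2 remaining old libraries Cacna1c, Itpr1, Ryr2 and Kcnma1 were above both young libraries. The 20-month library was itself old, and its SMCs were below both young libraries for Kcnma1, Itpr1 and Atp2a2.

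**Figure D4:**
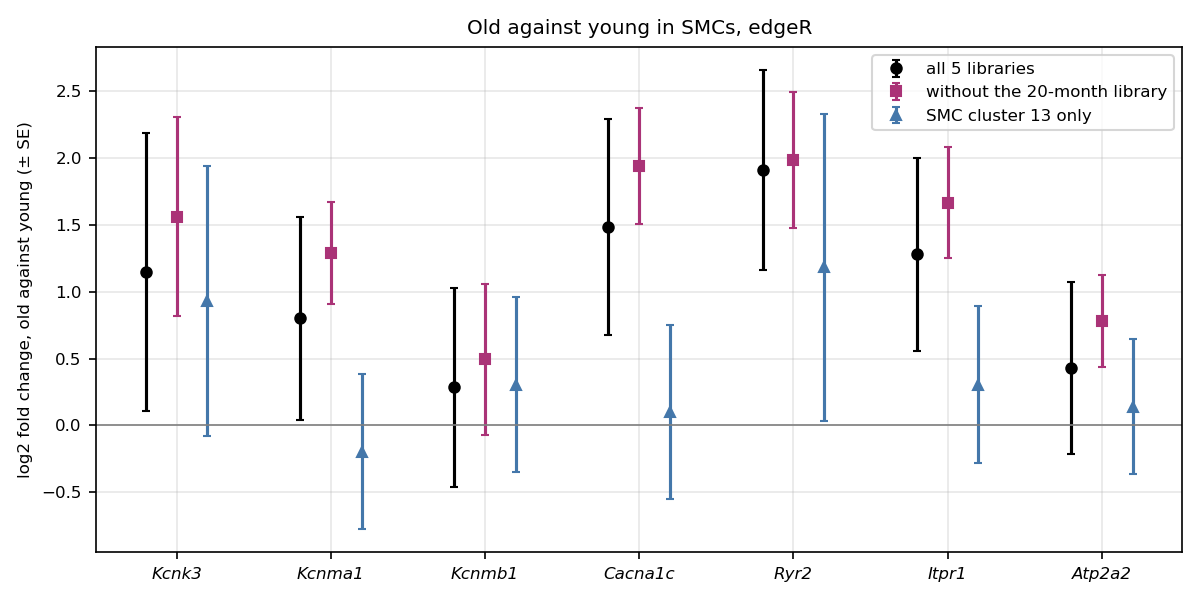
Log2 fold change, old against young, of the 7 tested members in SMCs by edgeR (points, with bars of 1 SE) with all 5 libraries, without the 20-month library, and in the SMC cluster that holds nearly all young SMCs. Cacna1c goes from 1.48 to 1.94 without the 20-month library and to 0.10 within the cluster.

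Young and old SMCs were also of different clusters. Of 4 SMC clusters, cluster 13 held 22 of 23 and 29 of 29 young SMCs and 139 of 140 SMCs at 20 months, but 168 of 2398 at 27 months and 80 of 951 at 28 months, where most SMCs were in clusters 1, 3 and 6. Within the 27- and 28-month libraries, cluster 13 cells had less of the large channel genes than the other SMCs. Cacna1c was at 0.290 and 0.285 times the level of the other clusters, Ryr2 at 0.330 and 0.222, Kcnma1 at 0.355 and 0.460, and Itpr1 at 0.507 and 0.421. Atp2a2 stood at 0.854 and 0.803, Kcnmb1 at 1.05 and 1.17, and Kcnk3 at 1.09 and 0.763. The first 4 of these genes span 338 to 713 kb and the last 3 span 10.7 to 48.7 kb.

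**Figure D5:**
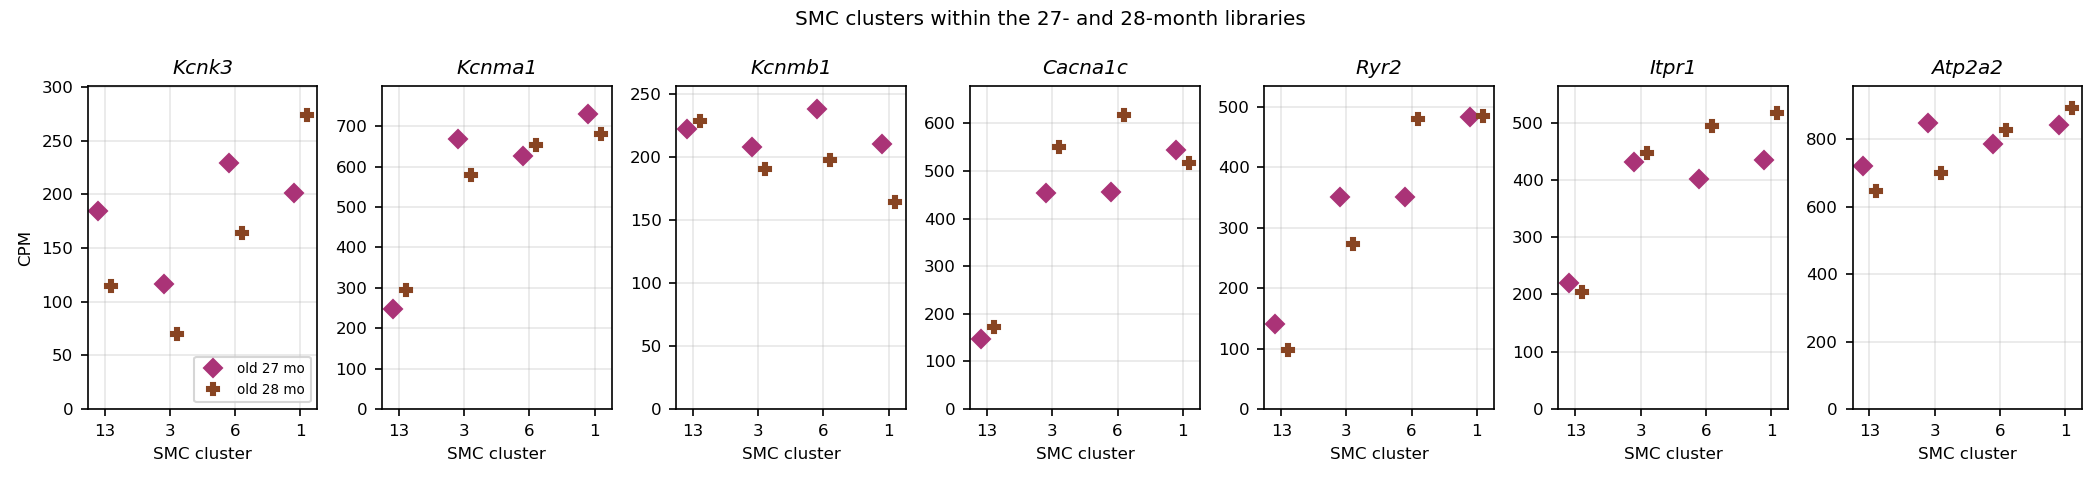
CPM of 7 members by SMC cluster within the 27- and 28-month libraries. Cacna1c, Ryr2, Kcnma1 and Itpr1 are lowest in cluster 13 in both libraries, whereas Kcnmb1 is near 200 CPM in every cluster.

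Other measures moved with cluster 13. Its cells had medians of 1135 and 1214.5 UMIs at 27 and 28 months, against 6373 to 10171.5 in the other SMC clusters of these libraries, and 4836 and 5887 CPM of the nuclear RNA Malat1 against 13472 to 27761. The mean mitochondrial share was 3.77% and 11.2% against 1.80% to 3.64%. Over all genes, the median log2 ratio of cluster 13 to the other SMCs was 0.50 and 0.25 for genes under 20 kb, and -0.82 and -0.69 for genes over 100 kb, at 27 and 28 months. The part of these differences in the levels of the long channel genes was not tested. In cluster 13 of the young libraries Malat1 was at 19396 and 15043 CPM, and at 20 months at 46460 CPM.

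Compared within cluster 13 alone, old and young SMCs had fitted differences nearer 0 for Cacna1c, Itpr1 and Kcnma1. Cacna1c had a log2 fold change of 0.10 (SE 0.65), Itpr1 0.31 (SE 0.59), Kcnma1 -0.20 (SE 0.58) and Ryr2 1.18 (SE 1.15). Kcnk3 was at 0.93, Kcnmb1 at 0.31 and Atp2a2 at 0.14. Ryr2 in this cluster was at 0 and 244 CPM in the young libraries and at 345, 140 and 98.2 CPM at 20, 27 and 28 months. Its only old value above both young ones was that of the 20-month library, which stood apart for Ryr2 in other cell types too. Of 4175 genes, 0% were called higher and 0.024% lower by edgeR, and no member was called, with adjusted p from 0.820 to 0.986. This comparison was chosen after the data were seen.

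Among SMCs of the 2 deepest libraries, cluster 3 had less Kcnk3 than clusters 1 and 6. It was at 117 CPM against 202 and 229 at 27 months, and at 70.4 CPM against 274 and 165 at 28 months. The same cluster had more Tnnt2, a troponin gene, at 326 and 274 CPM against 39.1 to 79.5 CPM in clusters 1 and 6, but less Actc1, the cardiac actin gene, at 80.7 and 44.1 CPM against 125 to 294 CPM. Ryr2 was at 351 CPM in cluster 3 at 27 months, against 483 and 351 in clusters 1 and 6, and at 273 CPM at 28 months, against 485 and 480.

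Genes from the marker lists of other cells were also detected in the SMCs. The 8 cardiomyocyte markers summed to 5696 CPM in the first young library, with all 8 detected, and to 781, 763, 381 and 294 CPM in the second young library and at 20, 27 and 28 months. In cluster 13, Tnnt2 and Actc1 were at 293 and 244 CPM in the second young library and at 574 and 188 CPM at 20 months. Both genes also differed between SMC clusters at 27 and 28 months. Whether the sums outside the first young library came from other cells was not tested. Of the 8 markers, 3 were at 0 in the second young library, 4 at 20 months, 0 at 27 months and 1 at 28 months. In 2 of the 23 first young SMC barcodes cardiomyocyte RNA was found with no UMI of Acta2, Myh11 or Tagln. Without these 2 barcodes Ryr2 was at 1.89 and Atp2a2 at 0.56 on the log2 scale. The 7 pericyte markers summed to 1230 and 537 CPM in young SMCs and 470, 1098 and 937 CPM in old. Of these markers, Higd1b was at 0 in 4 of 5 libraries. Whether the pericyte sums came from pericytes or from the SMCs themselves was not tested. The 6 neural markers summed to at most 48.8 CPM, with all 6 at 0 in the first young library.

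In FBs, ECs and MΦs the members that passed the filter were few and none was called. In FBs edgeR called 0% of 6712 genes higher and 0.0149% lower, the last being 1 gene, Dnmbp, which is no member, while 5.38% were higher and 2.52% lower at an unadjusted p under 0.05. Cacna1c in FBs was at 58.3 and 0 CPM in the young libraries and at 60.1, 95.02, 147 and 76.3 CPM at 20, 24, 27 and 28 months. Every old value was above both young ones, as for 14.4% of all genes, with 8 and 0 UMIs in the young (log2 fold change 1.02, SE 0.68, adjusted p = 0.764). Without the second young library, the one at 0, the log2 fold change was 0.56, and no fold is given against that library alone. Young FBs lay mostly in clusters 8 and 30, whereas 449 of 502 and 710 of 829 FBs of 27 and 28 months lay in cluster 2. Within cluster 8 Cacna1c was at 103 and 0 CPM in the young libraries and at 61.3, 92.9, 176 and 209 CPM at 20, 24, 27 and 28 months, so the groups overlapped there. Itpr1 in FBs was at 0.55 (SE 0.54, adjusted p = 0.858) and Atp2a2 at -0.03 (SE 0.53, adjusted p = 0.999).

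In ECs edgeR called 0% of 5821 genes in either direction, with 3.92% higher and 1.67% lower at an unadjusted p under 0.05 and 1 gene called by DESeq2. Atp2a2 in ECs was at 242 and 228 CPM in the young libraries and at 159, 221, 197 and 121 CPM at 20, 24, 27 and 28 months. Every old library was below both young ones, as for 8.18% of all genes (log2 fold change -0.43, SE 0.47, adjusted p = 0.955). Itpr1 in ECs was at -0.42 (SE 0.49, adjusted p = 0.963). Young ECs lay almost wholly in cluster 4, whereas most ECs of 27 and 28 months lay in clusters 7, 14 and 21. Within cluster 4 Atp2a2 was at 250 and 247 CPM in the young libraries. It was at 153, 196, 272 and 55.2 CPM at 20, 24, 27 and 28 months, so the groups overlapped there. The values of 272 and 55.2 CPM rest on 7 and 6 UMIs. In MΦs 0% of 5829 genes were called by edgeR, 3.6% were higher and 1.85% lower at an unadjusted p under 0.05, and 5 were called by DESeq2. The members in MΦs were Itpr1 at -0.72 (SE 0.72, adjusted p = 0.833) and Atp2a2 at -0.39 (SE 0.40, adjusted p = 0.834). Itpr1 moved to -1.37 without the 24-month library (adjusted p = 0.380) and to -0.34 without the 27-month library, with values from -1.09 to -0.35 without the other libraries in turn. Young MΦs lay mostly in clusters 5 and 23, whereas 211 of 243 and 372 of 463 MΦs of 27 and 28 months lay in cluster 10. Itpr1 was at 13.8 and 39.6 CPM in cluster 10 of these old libraries but at 453 and 476 CPM in their cluster 5. In cluster 5 the young libraries were at 115 and 310 CPM and the 20- and 24-month libraries at 148 and 200 CPM, so the groups overlapped there. The values of 453 and 310 CPM rest on 18 and 7 UMIs. Cluster 23 was led by Saa3, Prg4 and Serpinb2. Its 10 leading genes held 1 marker of perivascular MΦs, Pf4, and 1 of alveolar MΦs, Marco. The MΦ values of the young libraries may thus include another kind of MΦ, which was not tested.

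Partners of these channels were taken from a list of 63 genes of potassium and calcium channels, calcium stores, TRP channels, extrusion, chloride channels and calmodulin. In SMCs 32 were tested and 0 called, 29 had a log2 fold change above 0, and the median was 0.94, beside 0.56 over all genes. With library totals in place of TMM scaling 24 of 32 were above 0, beside 54.4% of all genes, with a median of 0.54. Within cluster 13 alone 13 of 23 were above 0, with a median of 0.37, beside 0.31 over all genes. At an unadjusted p under 0.05 with all 5 libraries, 5 of the 32 were higher and 1 was lower, beside 6.99% and 0.81% of all genes. Among those higher, Stim1 and Trpv2 had 0 UMIs in both young libraries and passed the filter through old libraries alone. The same held for Kcnj8 among the 29 above 0, so the direction of these genes was fixed in advance. The lower gene was Pln, at 592 and 0 CPM in the first and second young library. With the SMC barcodes holding cardiomyocyte RNA removed, 5 were higher and 0 lower. By class, 7 of the 22 potassium channel genes, 4 of 6 calcium channel genes, 9 of 17 store genes, 3 of 8 TRP channels, 3 of 3 extrusion genes, 1 of 2 chloride channels and 5 of 5 calmodulin genes were tested. In the other types 11 of 24 tested genes were above 0 in FBs, 14 of 24 in ECs and 12 of 21 in MΦs, beside 60.4%, 57.2% and 54% of all genes, with none called.

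The partner gene of highest SMC level was Kcnab1, the β subunit of voltage-gated potassium channels, at 638 and 635 CPM in the young libraries and 246, 1324 and 1273 CPM at 20, 27 and 28 months. Cacnb2, the β subunit of the L-type channel, followed the same order with 410 and 342 CPM in young and 130, 826 and 667 CPM in old SMCs. Irag1, which couples cyclic GMP to the inositol trisphosphate receptor, was at 91.1 and 97.7 CPM in young and 182, 369 and 411 CPM in old. These 3 genes were the partners called higher without the 20-month library, at log2 fold changes of 1.42 for Kcnab1, 1.38 for Cacnb2 and 2.44 for Irag1 (SE 0.31, 0.35 and 0.49, edgeR adjusted p = 0.0228, 0.0418 and 0.018). Of 18 partners tested there, 17 were above 0, with a median of 0.77 beside 0.16 over all genes. The 3 called higher stand beside 1.83% of all 3659 genes. Of these, Irag1 had both young values below the level that 3 UMIs would give.

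Camk2d, a calcium- and calmodulin-dependent kinase, had a mean SMC level of 434 ± 170 CPM (SD, n = 5). Slc8a1, the sodium-calcium exchanger, had 578 ± 308 CPM and followed the order of Kcnab1, with 501 and 488 CPM in young and 167, 989 and 742 CPM in old SMCs. Fkbp1a, a ryanodine receptor binding protein, had 374 ± 111 CPM. Its levels were 501 and 440 CPM in young and 411, 276 and 240 CPM in old SMCs. With all 5 libraries its log2 fold change was -0.14 (SE 0.61, edgeR adjusted p = 0.975). Of the 32 partners tested in SMCs, 6 had every old library above both young ones, beside 23.1% of all genes. Among these 6, Kcnj8, Stim1 and Trpv2 had 0 UMIs in both young libraries. Fkbp1a alone had every old library below both young ones. No share over all genes is given for that direction, so no weight is put on this order. Calr, a store calcium buffer, had 277 ± 62.9 CPM. Jph2, which ties the reticulum to the cell membrane, had 271 ± 85.2 CPM, and Cacna2d1, the α2δ subunit, 258 ± 95.8 CPM. Sln, a pump inhibitor of atrial muscle, had a mean of 383 CPM that came from 42 UMIs of the first young library alone, where cardiomyocyte markers were found.

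The start sites of members that differed in their cell type were read from RefSeq on GRCm38.p6, which matched 6 of the 10 genes. The stretches before the start are shown for Kcnmb1, higher in SMCs than in every other type, Kcna5, highest in ECs, Ryr2, found outside SMCs mainly at 20 months, and Trpc6, with 9 UMIs over all SMCs. In the 250 bases before the start Kcnmb1 had 1 CG dinucleotide (50.8% GC), Kcna5 3 (53.2%) and Ryr2 14 (63.2%), against a median of 6 (52.4%) over all windows, while Kcnma1 had 31 (79.2%). CG dinucleotides are in capitals for Kcna5 and Ryr2, and the stretch of Kcnmb1 printed holds none. A CArG box, the binding motif of serum response factor on smooth muscle promoters, was searched on both strands. It was found in 535 of 32851 windows of 300 bases (1.63%), and among the matched members in Trpc6 alone. There it begins 122 bases before the start used and is in capitals. The starts used for Trpc6, Kcnma1 and Kcnmb1 lie inside the gene spans given above. The bases before them are therefore within the annotated gene, wholly for Trpc6 and Kcnma1 and in part for Kcnmb1.
Kcnmb1, chr11:33962763-33962954, plus strand: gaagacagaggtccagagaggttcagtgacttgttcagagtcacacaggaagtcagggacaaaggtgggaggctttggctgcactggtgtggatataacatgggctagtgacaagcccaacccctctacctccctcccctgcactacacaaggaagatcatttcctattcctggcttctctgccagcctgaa
Kcna5, chr6:126535556-126535805, minus strand: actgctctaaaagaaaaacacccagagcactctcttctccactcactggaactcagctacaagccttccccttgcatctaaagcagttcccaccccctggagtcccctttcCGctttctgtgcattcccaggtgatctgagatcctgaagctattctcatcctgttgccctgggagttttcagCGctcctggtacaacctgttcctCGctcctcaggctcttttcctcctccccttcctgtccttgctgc
Ryr2, chr13:12106946-12107195, minus strand: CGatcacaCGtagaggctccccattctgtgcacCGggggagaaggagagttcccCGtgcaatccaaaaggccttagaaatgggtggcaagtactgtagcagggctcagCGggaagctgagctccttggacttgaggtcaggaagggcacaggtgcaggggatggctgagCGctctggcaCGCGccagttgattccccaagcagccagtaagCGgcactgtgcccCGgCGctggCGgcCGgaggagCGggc
Trpc6, chr9:8544010-8544039, plus strand: cctttcgatcCCTTTAAAGGtggggatcgt

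Some reads could belong to a gene on the other strand, since the sources used here do not state whether counting used strand. Kcnmb1 overlaps Kcnip1 (468 SMC UMIs, beside 6022 of Kcnmb1), Cacna1c overlaps Dcp1b (664 beside 14950), and Ryr3 overlaps Aven, which had 670 SMC UMIs beside 38 of Ryr3.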

How the data were processed

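Single cell libraries of proximal PAs from 2 young and 4 old mice were used. The study describes 1 more young mouse, not analysed here. The authors dissociated the arteries with collagenase and elastase, made droplet libraries, trimmed reads with Cutadapt, and used STARsolo to align to GRCm38 and count UMIs. The values the authors deposited are raw, unnormalized UMI counts of each gene in each barcode, empty barcodes included.

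A barcode was kept as a cell from 500 UMIs and 300 genes upward, with no more than 20% mitochondrial UMIs, and 6 to 66 doublets per library were removed (scrublet, or the expected share where it marked under 0.5%). The 6 libraries were clustered jointly with scanpy 1.11.5 (2000 variable genes without the members and their partners, 40 components, 15 neighbours, leidenalg 0.10.2 at resolution 1.0, no batch correction). Clusters were named from marker lists where more than 40% of the markers were raised. Counts were summed per library and type, where the library had 10 or more such cells. Genes detected in more than 5% of the cells of 3 or more libraries were tested with edgeR 4.0.16 (TMM, robust quasi-likelihood F test, Benjamini-Hochberg over all genes tested, adjusted p under 0.05) in R 4.3.3 with limma 3.58.1. DESeq2 1.42.0 was an alternative. Fold changes are on edgeR's log2 scale. Python 3.11.15 with pandas 2.3.3, numpy 2.4.6, scipy 1.17.1 and matplotlib 3.10.9 served the other steps.

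The library, 1 mouse each, was the replicate, and p-values measure the spread between these mice alone. Poisson and binomial intervals are exact at 95% and cover counting error only. Partner genes named are the 12 of the list with the highest mean SMC level and those with an adjusted p under 0.05 in any fitted type. The genes called like a member are the 3 of highest r of log2(mean CPM + 10) over types, and cardiomyocyte, pericyte and neural markers are given beside the members. Other genes named were chosen after their values were seen. The members and lists were chosen with earlier results of these data known. On simulated counts with 200 genes changed, edgeR recovered 1% of 4-fold and 63.5% of 16-fold changes in SMCs, 8.5% and 85% in FBs, 0.5% and 83.5% in ECs, and 0% and 84.5% in perivascular MΦs. Alternatives changed the cell filter, doublets, depth, shared barcodes, gene filter, scaling, tool and libraries. The SMC cluster and the removal of barcodes with cardiomyocyte RNA were added after the data were seen.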

Additional observations from a re-analysis of the deposited data

Results flagged for a closer look

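In 21 of 50 groups of 4 old libraries, 1 library stood far from the other 3 in the level of a member. In 6 of the 21 the other 3 libraries were at 0, so that even 1 UMI sets the library apart. The usual chance rate of about 1 in 20 groups does not apply to such counts, and no weight is put on the number.

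The 20-month library was the distant one for Ryr2 in ECs (375 CPM), FBs (221), airway epithelial cells (188) and perivascular MΦs (358), for Ryr3 in FBs (21.6, 9 UMIs), for Cacna1c (23.5, 8 UMIs) and Trpc6 (5.87, 2 UMIs) in perivascular MΦs, and, on the low side, for Itpr1 in ECs (239 CPM, against 522 to 539 in the others). The 27-month library, which held 2398 SMCs, was the distant one for Kcnk3 in FBs (4.39 CPM), airway epithelial cells (8.04) and mesothelial cells (13), for Kcnmb1 in ECs (4.67), FBs (5.07) and perivascular MΦs (2.79), for Kcna5 (2.90, 2 UMIs) and Kcnma1 (78.2) in mesothelial cells, and for Cacna1c in airway epithelial cells (38.0). The remaining 4 rested on 1 to 3 UMIs: Kcna5 in FBs (0.188 CPM) and perivascular MΦs (0.365) at 28 months, and Trpc6 in airway epithelial cells (0.731) and Kcnk3 in perivascular MΦs (6.25) at 24 months.

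In barcodes with under 100 UMIs, which no comparison used, 5 values of old libraries were above both young libraries beyond counting error. These were Ryr2 at 20 months (33618 CPM, against 204 and 189 in the young), Itpr1 at 20 months (198, against 160 and 133), Atp2a2 at 24 months (282, against 75.7 and 205), and Kcnmb1 at 27 months (42.5) and 28 months (18.3), against 6.98 and 4.91. Of the 40 old values compared, 18 were below both young libraries beyond counting error, among them Ryr3 at 27 and 28 months (0.525 and 0.870 CPM, against 224 and 105) and Ryr2 at the same ages (45.1 and 45.2 CPM).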

How the results depend on the processing

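Of 200 alternative fold changes of members, 182 kept their direction and their side of the threshold, 3 were called only without the 20-month library (Ryr2, Cacna1c and Itpr1 in SMCs), and 15 changed sign. In SMCs these were Kcnma1 within the young cells' cluster (-0.20), Kcnmb1 without TMM (-0.13), with cells thinned to 500 UMIs (-0.31) and without the first young library (-0.59, in a range to 2.38 with 1 library left out), and Atp2a2 without the second young library (-0.021, in a range to 1.07). In FBs Atp2a2 was above 0 with no gene filter (0.22), with barcode sharing between libraries as covariate (0.50), thinned (0.35), and without the first young (1.33), 20-month (0.16) or 28-month library (0.09), in a range from -0.55 with 1 library left out, and it was at -0.78 in cells of at least 1000 UMIs. In ECs Itpr1 was at 0.037 with no gene filter and Atp2a2 at 0.032 with the covariate, and in perivascular MΦs Itpr1 was at 0.35 with the covariate and Atp2a2 at 0.33 in cells of at least 1000 UMIs. The genes called in SMCs went from 0 to 2 with filterByExpr, 30 with no gene filter, 1 without TMM, 3 with DESeq2, 1 within the young cells' cluster, and 0 to 86 with 1 library left out. In FBs the count went from 1 to 74 with no gene filter, 3 without TMM, 4 with DESeq2, 0 with the covariate, thinned or without shared barcodes, and 0 to 3 with 1 library left out. In ECs it went from 0 to 7 with no gene filter, 1 with DESeq2 and 0 to 1 with 1 library left out, and in perivascular MΦs from 0 to 42 with no gene filter and 5 with DESeq2. The cause was not tested. Thinning moved 36 of 40 shares of cells, and keeping doublets moved 3 of 360 mean levels, all of Kcnma1 or Kcnmb1 in ECs or perivascular MΦs. The covariate in SMCs and the filter of 1000 UMIs in SMCs and ECs were not run, since both young libraries share barcodes and too few young cells were left. No paired analysis was possible because the labels carry no replicate numbers shared by young and old mice. The 23 and 29 SMCs of the young libraries limit the depth of every SMC comparison.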

Other observations

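SMCs were the main source of the SMC channel genes in all kept cells: 4752 of 4844 Kcnk3 UMIs, 19589 of 20101 Kcnma1 UMIs and 6022 of 6172 Kcnmb1 UMIs came from them, in libraries whose SMCs were mostly those of 27 and 28 months. Itpr1 was less so, with 12697 of 21065 UMIs. SMCs also held the most UMIs of all genes, 29156700, beside 9067287 in FBs, the next type. The 3 SMCs of the 24-month library, left out above, gave 1 UMI each of Kcnma1, Cacna1c, Ryr2 and Itpr1 and none of the other members.

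Genes near 0 in young SMCs and clearly present in old ones included Stim1, the store calcium sensor (0 UMIs in both young libraries, 33.0, 87.1 and 87.6 CPM at 20, 27 and 28 months), Trpv2, a stretch-sensitive cation channel (0, then 35.2, 34.4 and 43.2 CPM), and Kcnj8, the pore of the ATP-sensitive potassium channel (0, then 17.6, 38.2 and 34.8 CPM). All of these old levels were below the 137 and 147 CPM that a count of 0 allows in the young libraries, so a difference was not detectable at this depth. They were chosen after their values were seen.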
